A study of Mus musculus with 8 samples.

Results

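The interleukin 1 family genes described here are 4 ligands (Il1a, Il1b, Il33 and Il18), 2 soluble antagonists (Il1rn and Il18bp) and 4 receptor chains (Il1r1, Il1rap, Il1rl1 and Il18r1). A gene was taken where the array held a transcript cluster, the array's unit of measurement for 1 gene, that the platform annotation gives exactly 1 gene symbol. Of the 10 genes, 8 had such a cluster, 1 each, out of 21789 single-symbol clusters. Il1r1, the signalling receptor for both forms of interleukin 1, and Il1rl1, the receptor for interleukin 33, had none and were not analysed here. RNA came from whole corpus callosum, a white matter tract linking both hemispheres of the brain. The mice were wild-type C57BL/6 males whose age the labels give as 8 weeks in both groups. The 4 control samples came from mice on normal diet, and the 4 cuprizone samples from mice fed 0.25% cuprizone, a copper chelator that damages oligodendrocytes, for 1 week. The arrays were Affymetrix Mouse Gene 1.0 ST, 1 per sample, which read probes along whole transcripts, and levels are on the log2 scale. The labels call the samples biological replicates 1 to 4 of each diet and do not say whether each is 1 mouse, so p-values measure the spread between these samples. The title of the series places the comparison in the context of oligodendrocyte degeneration and inflammatory brain lesions.

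Interleukin 1 alpha and beta bind a receptor that signals together with the accessory chain encoded by Il1rap, through MYD88 and NF-kappa B, and the antagonist encoded by Il1rn occupies that receptor without signalling. Interleukin 33 is a nuclear protein that damaged cells release as an alarm signal, and in the central nervous system mature oligodendrocytes and astrocytes produce it. Interleukin 18 is made as an inactive precursor that caspase 1 cleaves, as is interleukin 1 beta, and the protein encoded by Il18bp captures it before it reaches its receptor.

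Over the 23410 gene-named clusters, correlation was 0.9952 to 0.9971 within a group and 0.9884 to 0.9944 between groups. On the first principal component, which held 52.2% of the variance, control replicate 2 and cuprizone replicate 2 stood nearest to the other group, at -13.2 and 8.73. All 11 measured markers of mature oligodendrocytes were brighter than the median cluster, and so were all 8 neuron markers. Detection above background is not known for these values, and 4 of the 8 family clusters (Il1a, Il1b, Il1rn and Il18r1) were among the dimmest 25% of clusters by mean level.

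After 1 week of cuprizone all 4 ligand genes had changed, in opposite directions. Il1a rose 2.20-fold and Il1b 1.40-fold, whereas Il33 fell 2.52-fold and Il18 fell 1.44-fold. None of the 4 measured antagonist and receptor genes passed the threshold, a limma adjusted p under 0.05 over all clusters tested, and 0 of them had an unadjusted p under 0.05. At that threshold 8.22% of all clusters were called, 4.71% higher and 3.52% lower. The median log2 change of the 8 genes was 0.078, against -0.0074 over all clusters. In bulk tissue, fewer cells of a type and less RNA per cell cannot be told apart.

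**Figure D1:**
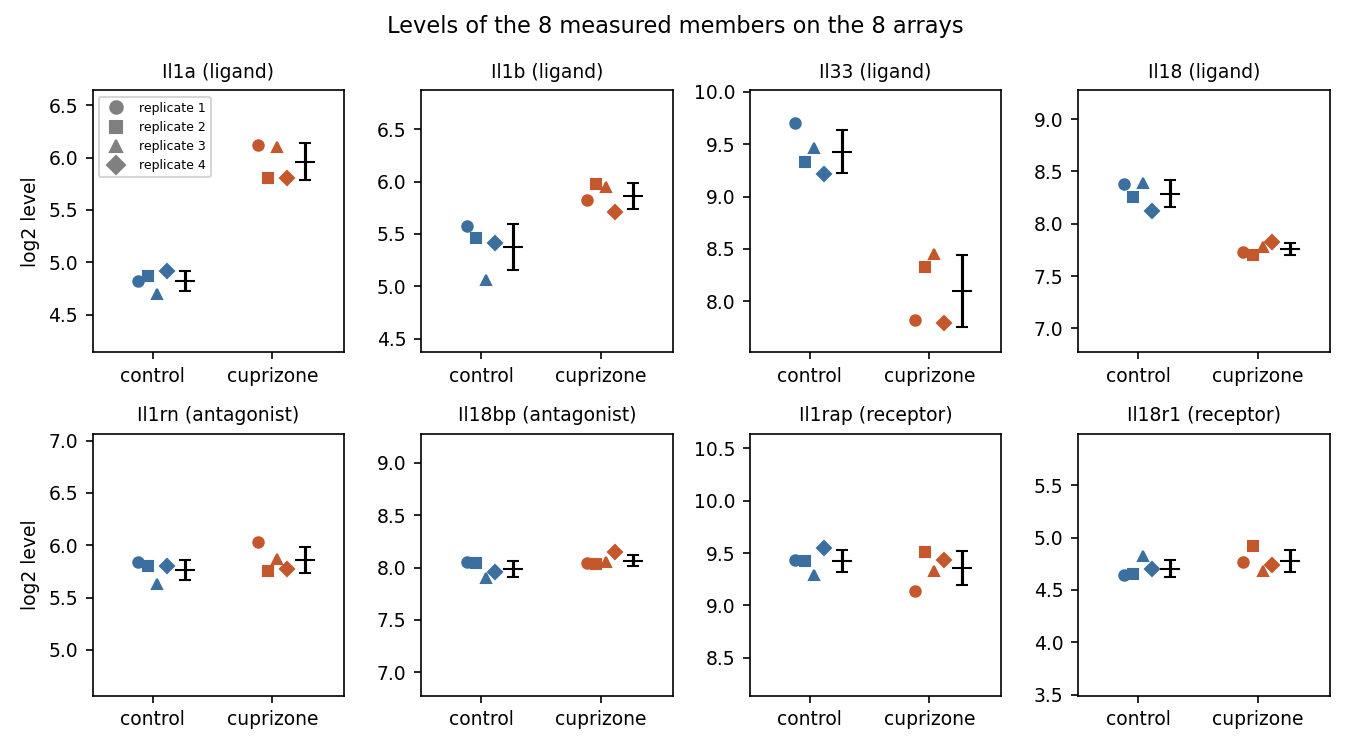
Log2 level of each of the 8 measured genes on the 4 control arrays (blue) and the 4 cuprizone arrays (orange), with a marker shape for each replicate number and a black bar for the mean ± SD. Every panel spans the same height of the log2 scale but starts at a different level. The groups are apart in the 4 ligand panels and overlap in the 4 antagonist and receptor panels.

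Il1a (transcript cluster 10487588) encodes a form of interleukin 1 that is active as a precursor and is kept in the cell until damage or cleavage frees it. Its log2 level was 4.82, 4.87, 4.69 and 4.91 on control replicates 1 to 4, and 6.12, 5.81, 6.11 and 5.81 on cuprizone replicates 1 to 4. The groups did not overlap, and the lowest cuprizone array stood 0.89 above the highest control. The mean rose from 4.82 ± 0.095 to 5.96 ± 0.18 (SD, n = 4 each), a log2 change of 1.14 ± 0.088 (SE, limma adjusted p = 2.11e-05). Without any 1 array the change lay between 1.09 and 1.19.

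Il1b (transcript cluster 10487597), the secreted form that needs cleavage, moved less. Its log2 level was 5.57, 5.46, 5.06 and 5.41 on the controls, and 5.82, 5.98, 5.95 and 5.71 on the cuprizone arrays. The groups were apart by 0.14, and control replicate 3 was the lowest of the 8 arrays. The mean rose from 5.38 ± 0.22 to 5.87 ± 0.12, a log2 change of 0.49 ± 0.10 (limma adjusted p = 0.0140). The adjusted p was 0.0552 without replicate 2 of both groups, 0.0904 without moderation of the variances and 0.0652 with the mean of the neuron markers as a covariate, and lay between 0.0103 and 0.0904 over the alternatives in which it was tested.

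Il33 (transcript cluster 10462442) changed most of the 8 genes. Its log2 level was 9.70, 9.33, 9.47 and 9.22 on the controls, and 7.82, 8.33, 8.45 and 7.80 on the cuprizone arrays. The cuprizone arrays lay as pairs, replicates 1 and 4 low and replicates 2 and 3 higher, and the highest of them was 0.77 below the lowest control. The mean fell from 9.43 ± 0.21 to 8.10 ± 0.34, a log2 change of -1.33 ± 0.16 (limma adjusted p = 0.000332).

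Il18 (transcript cluster 10585194) was the most even of the ligands under cuprizone. Its log2 level was 8.38, 8.25, 8.39 and 8.12 on the controls, and 7.73, 7.71, 7.78 and 7.83 on the cuprizone arrays. The SD was 0.13 over the controls and 0.055 over the cuprizone arrays, and the groups were apart by 0.29. The log2 change was -0.53 ± 0.069 (limma adjusted p = 0.000737). Groups did not overlap in 15.3% of all clusters tested, with cuprizone higher in 8.24% and lower in 7.09%, so complete separation by itself was not rare on these arrays.

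The upstream sequences of the 4 ligand genes are shown because these are the members whose levels changed. RefSeq (GRCm38.p6) gave a start site for all 8 genes, 13 starts in all, of which 5 belong to the ligands, with 2 for Il33. Each line gives the 250 bases before a start, 5′ to 3′ on the strand of the gene, with matches to the motifs named below in capitals.
Il1a: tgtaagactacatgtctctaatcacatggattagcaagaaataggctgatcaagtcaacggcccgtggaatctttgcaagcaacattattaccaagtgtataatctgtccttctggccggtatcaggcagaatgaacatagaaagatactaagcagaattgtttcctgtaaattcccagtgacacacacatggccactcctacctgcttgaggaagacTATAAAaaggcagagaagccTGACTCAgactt
Il1b: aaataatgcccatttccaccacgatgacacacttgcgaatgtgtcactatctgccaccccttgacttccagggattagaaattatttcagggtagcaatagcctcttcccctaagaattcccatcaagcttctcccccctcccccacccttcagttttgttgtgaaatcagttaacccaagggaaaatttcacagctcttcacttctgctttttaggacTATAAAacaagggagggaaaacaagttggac
Il33, first start: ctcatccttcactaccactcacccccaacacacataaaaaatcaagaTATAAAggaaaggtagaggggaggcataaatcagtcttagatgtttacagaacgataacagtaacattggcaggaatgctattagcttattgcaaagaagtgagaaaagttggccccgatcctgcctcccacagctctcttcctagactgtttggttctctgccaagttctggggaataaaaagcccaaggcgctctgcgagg
Il33, second start: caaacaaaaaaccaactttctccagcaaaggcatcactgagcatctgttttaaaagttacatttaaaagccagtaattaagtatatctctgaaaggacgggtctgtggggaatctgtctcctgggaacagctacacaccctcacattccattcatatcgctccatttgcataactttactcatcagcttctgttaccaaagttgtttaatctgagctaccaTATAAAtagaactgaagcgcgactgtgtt
Il18: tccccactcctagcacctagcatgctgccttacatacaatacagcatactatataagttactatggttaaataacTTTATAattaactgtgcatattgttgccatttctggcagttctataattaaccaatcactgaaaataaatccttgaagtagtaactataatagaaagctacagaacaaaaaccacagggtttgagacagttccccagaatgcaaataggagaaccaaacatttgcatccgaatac
The windows lie at chr2:129309973-129310222 on the minus strand for Il1a, chr2:129371140-129371389 on the minus strand for Il1b, chr19:29924863-29925112 and chr19:29945540-29945789 on the plus strand for the starts of Il33, and chr9:50554450-50554699 on the plus strand for Il18.

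Each motif was searched on both strands of these windows. The TATA box letters TATAAA were in all 5 ligand windows and in none of the 8 windows of Il1rn, Il18bp, Il1rap and Il18r1, and 12.4% of the 32851 RefSeq promoter windows of this length hold them. They began 32 bases before the start of Il1a, 31 before that of Il1b and 29 before the second start of Il33, where a TATA box usually lies, but 203 before the first start of Il33 and, on the opposite strand, 175 before that of Il18. The AP-1 letters TGANTCA were 12 bases before the start of Il1a and 141 before the first start of Il1rn, and 6.75% of windows hold them. A loose kappa B motif (3 G, 5 free bases, 2 C), held by 45.8% of windows, were in none of the ligand windows and in 2 of 3 for Il1rn, the 1 for Il1rap, where matches overlap each other, and 1 of 3 for Il18r1. No other motifs overlapped. The interferon response motif (2.98% of windows), the cAMP response letters TGACGTCA (1.55%), the C/EBP-ATF composite letters TGATGNAAT (0.816%), the Ets letters GAGGAAGT (2.44%) and a paired Sox motif (0.423%), had no match in the 13 windows. The motifs were chosen with the changes known, and a match is a description of the sequence only.

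The antagonists stayed close to their control levels. Il1rn (transcript cluster 10469816) stood at 5.84, 5.80, 5.63 and 5.80 on the controls and at 6.03, 5.76, 5.87 and 5.78 on the cuprizone arrays. The groups overlapped, although cuprizone replicate 1 was the highest of the 8 arrays. Its log2 change was 0.092 ± 0.075 (limma adjusted p = 0.562), with a 95% confidence interval of -0.073 to 0.26. Il18bp (transcript cluster 10566050) stood at 8.05, 8.04, 7.90 and 7.96 on the controls and at 8.04, 8.03, 8.05 and 8.15 on the cuprizone arrays. The log2 change was 0.0815 ± 0.058, with an interval of -0.046 to 0.21 (limma adjusted p = 0.495). The intervals leave room for rises of up to 0.26 and 0.21 and do not show that the levels were equal.

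The receptor chains also overlapped between the groups. Il1rap (transcript cluster 10434845), the accessory chain that the receptors for interleukin 1 and interleukin 33 share, stood at 9.43, 9.42, 9.29 and 9.54 on the controls and at 9.14, 9.51, 9.32 and 9.43 on the cuprizone arrays. Cuprizone replicate 1 was the lowest of the 8. The log2 change was -0.068 ± 0.086 (interval -0.26 to 0.12, limma adjusted p = 0.738), and 0.0030 without cuprizone replicate 1. Il18r1 (transcript cluster 10345807), the ligand-binding chain of the interleukin 18 receptor, stood at 4.64, 4.65, 4.82 and 4.70 on the controls and at 4.77, 4.92, 4.68 and 4.74 on the cuprizone arrays. The log2 change was 0.074 ± 0.067 (interval -0.075 to 0.22, limma adjusted p = 0.617). Its mean level was at percentile 10.3 of all clusters, among the dimmest signals of the array.

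**Figure D2:**
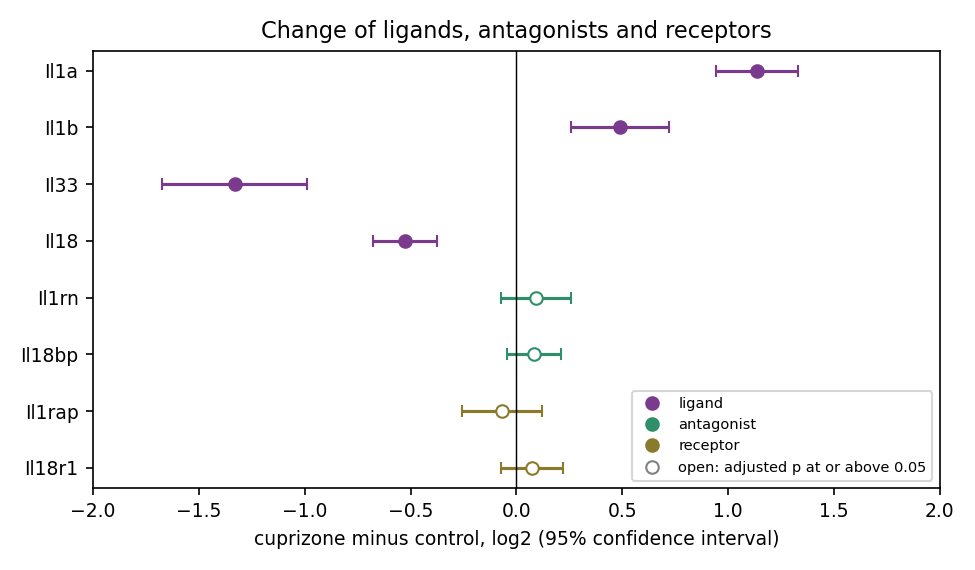
Difference between the cuprizone and control means of each gene on the log2 scale, with its 95% confidence interval from limma, for ligands (purple), antagonists (green) and receptors (olive). Filled points passed an adjusted p of 0.05 and open points did not. The intervals of the 4 ligands lie away from 0, and those of the 4 other genes include it.

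Ligands were set against their own antagonist or receptor, and against each other, by the difference of the 2 genes' levels on each array. This was done for 6 pairs, and each was given an exact permutation test (two-sided, 70 ways to assign the arrays) with p adjusted over the 6 pairs. The smallest p the design allows is 0.0286, and all 6 pairs reached it, adjusted p = 0.0286 (exact permutation test). Il1a gained 1.05 ± 0.055 (log2 ± SE) on Il1rn, with cuprizone arrays 0.98 to 1.18 above the control mean of that difference. Il1b gained 0.40 ± 0.11 on Il1rn, more unevenly, with cuprizone arrays 0.18 to 0.61 above the control mean against -0.17 to 0.12 for the controls. The adjusted p of that pair was 0.0571 without any 1 of the 4 controls and 0.0286 without any 1 of the 4 cuprizone arrays (exact permutation test). Il1a rose by 0.65 ± 0.13 more than Il1b, with an adjusted p of 0.0571 without control replicate 1 (exact permutation test). For both pairs with Il1b the groups stayed apart whichever 1 array was left out. The step from 0.0286 to 0.0571 (exact permutation test) was thus not an overlap, but unequal groups do allow a smaller value. Leaving out a cuprizone array made the groups as unequal, and both pairs stayed at 0.0286 (exact permutation test). With all 8 arrays, the lowest cuprizone array and the highest control stood at 0.18 and 0.12 for Il1b with Il1rn. For Il1a with Il1b they stood at 0.38 and 0.18. Il18 lost 0.61 ± 0.074 against Il18bp, and the 4 cuprizone arrays stood at -0.62 to -0.57 relative to the control mean of that difference. Il18 lost 0.60 ± 0.098 against Il18r1. Il1a and Il33, the 2 members of the family that are held inside cells until damage, parted by 2.47 ± 0.23, from 2.09 to 2.91 on the cuprizone arrays. Each cuprizone array was already above every control for Il1a and below every control for Il33. The permutation p of this pair was therefore fixed beforehand and adds nothing to those changes. The same holds for Il1a with Il1rn and for Il18 with Il18bp and with Il18r1. There the ligand's gap between the groups, 0.89 for Il1a and 0.29 for Il18, was wider than the partner's whole range over the 8 arrays. The pairs of Il1a with Il1r1 and of Il33 with Il1rl1 could not be formed.

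The 2 ligands that fell did so beside the markers of mature oligodendrocytes. Of 11 measured markers all 11 were called lower, against 3.52% of all clusters. Their log2 changes had a median of -2.15 and ranged from -3.78 to -1.28, the least being Mbp, the main cytoplasmic protein of compact myelin. The change of Il33, -1.33, lay at the small end of that range and that of Il18, -0.53, outside it. The mean of the markers stood at -2.78, -1.95, -2.12 and -2.34 on cuprizone replicates 1 to 4, relative to the control mean. Il33 was likewise lower on replicates 1 and 4 than on 2 and 3, while Il18 had an SD of 0.055 over these arrays. The summed level of the markers was 14.6 to 14.8 (log2) on the controls and 12.3 to 13.0 on the cuprizone arrays. Astrocytes are the other source of Il33 named above, and their 8 markers moved both ways, 3 higher and 3 lower. Among the brightest, the glutamate transporter Slc1a2 stood at -0.60 ± 0.069 and glutamine synthetase, Glul, at -0.49 ± 0.063. The glycolytic enzyme Aldoc, also among the brightest, stood at -0.12 ± 0.080 (limma adjusted p = 0.463). The filament gene Gfap, singled out after its value was seen, stood at 0.96 ± 0.060. Their summed level was 14.2 to 14.4 on the controls and 14.0 to 14.2 on the cuprizone arrays. The part of either cell type in the fall of Il33 and Il18 was not tested.

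The 2 ligands that rose did so beside the markers of microglia, the resident macrophages of the brain. Of 11 measured markers 8 were called higher and none lower, with a median of 0.49, against 4.71% called higher over all clusters. The count was 5 without control replicate 1, without control replicate 4 or without cuprizone replicate 4, and 4 without moderation of the variances. Of the 11 changes 10 were above 0, and P2ry12, singled out after its value was seen, stood at -0.059 ± 0.089 (limma adjusted p = 0.789). Among the brightest, the complement subunit C1qb rose by 1.14 ± 0.11 and the growth factor receptor Csf1r by 0.61 ± 0.064, and the fractalkine receptor Cx3cr1 stood at 0.27 ± 0.082 (limma adjusted p = 0.0677). The summed level was 11.6 to 11.8 on the controls and 12.2 to 12.5 on the cuprizone arrays. The mean of the markers stood at 0.34, 0.41, 0.68 and 0.53 on cuprizone replicates 1 to 4, and Il1a at 1.30, 0.99, 1.28 and 0.99 above its control mean, above the marker mean on each of the 4 arrays. Il1b, at 0.44, 0.60, 0.57 and 0.34, was above the marker mean on replicates 1 and 2 and below it on replicates 3 and 4. The part of microglial number in the rise was not tested.

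**Figure D3:**
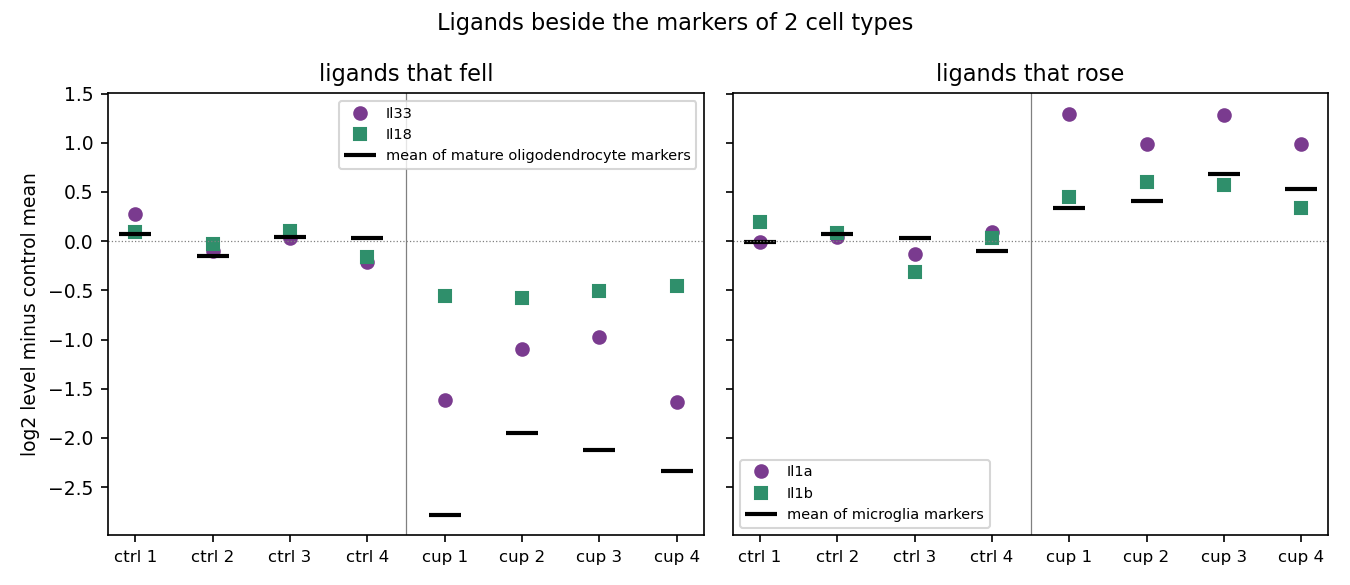
Log2 level minus the control mean on each array (ctrl, control; cup, cuprizone; replicate numbers 1 to 4), for Il33 and Il18 beside the mean of 11 markers of mature oligodendrocytes (left) and for Il1a and Il1b beside the mean of 11 markers of microglia (right). Il33 and Il18 lie above the black bars of the oligodendrocyte mean on all 4 cuprizone arrays, and Il1a lies above those of the microglial mean.

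Markers of blood-borne cells that carry these receptors or ligands were not called in limma. None of 11 monocyte and neutrophil markers passed (1 at an unadjusted p under 0.05), 9 of them were among the dimmest 25% of clusters, and their summed level was 8.63 to 8.77 on the controls and 8.60 to 8.82 on the cuprizone arrays. None of 10 markers of T cells, NK cells and innate lymphoid cells passed (10.2 to 10.3 against 10.1 to 10.6, 1 at an unadjusted p under 0.05, 6 among the dimmest 25%), and none of 8 mast cell and basophil markers (9.07 to 9.15 against 8.99 to 9.11, 0 at an unadjusted p under 0.05, 7 among the dimmest 25%). These 2 sums lean on the brightest gene of each list, Rora and Kit, singled out after their values were seen. Rora stood at 9.26 to 9.38 on the controls and 9.05 to 9.96 on the cuprizone arrays. The control mean of Kit was 8.25. None of 7 endothelial, 8 neuron and 8 meningeal and choroid plexus markers passed (3, 1 and 0 at an unadjusted p under 0.05), and the summed level of the last varied widely in both groups, from 10.9 to 12.9 on the controls and from 10.9 to 12.6 on the cuprizone arrays.

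By likeness of profile, measured as the root mean square difference over the 8 arrays between levels that had each gene's mean removed, 17063 single-symbol genes were compared with each ligand. Nearest to Il33 were Gjb1 (difference 0.10, log2 change -1.35), Tmem63a (0.13, -1.49), Unc5b (0.14, -1.37), Pllp (0.15, -1.55) and Qdpr (0.15, -1.37). Nearest to Il18 were Rlbp1 (0.046, -0.60), Cyth1 (0.057, -0.49), Cercam (0.067, -0.55), Ypel2 (0.071, -0.45) and Fasn (0.072, -0.44). Nearest to Il1a were Tgfbi (0.073, 1.19), Tagln2 (0.079, 1.13), Flnc (0.089, 1.07), Ddit3 (0.10, 1.09) and Igsf6 (0.11, 1.09). Nearest to Il1b were Prrg4 (0.082, 0.45), Vat1 (0.086, 0.49), Ednrb (0.086, 0.45), Hvcn1 (0.096, 0.50) and Slc15a3 (0.098, 0.50). None of these sets held another member of the family. The likeness was chosen over all arrays and so is mostly likeness of the difference between the groups.

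The family is partly clustered on the chromosomes, taking the order of protein-coding genes that RefSeq gives for GRCm38.p6. Il1a and Il1b, the genes that rose, are direct neighbours on chromosome 2. Il1rn lies on the same chromosome with 1093 genes between it and Il1a, next to a row of 5 genes for interleukin 36 and related family members, Il1f8, Il1f9, Il1f6, Il1f5 and Il1f10, whose log2 changes lay between -0.18 and 0.056. Il18r1 is 1 of 6 receptor genes in a row on chromosome 1. Of these, the decoy receptor Il1r2 stood at -0.17 ± 0.096, Il1rl2 at 0.11 ± 0.10 and the signalling chain of the interleukin 18 receptor, Il18rap, at -0.11 ± 0.066, all named for their place in the row after their values were seen. None of the 4 measured genes of the receptor row and none of the 5 beside Il1rn passed the threshold in limma.

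Of 11 further measured genes of the family none passed in limma and 1 had an unadjusted p under 0.05, with a median log2 change of -0.052. The smallest p were those of Il1rapl2, a neuronal relative of the accessory chain, at -0.27 ± 0.082 (limma adjusted p = 0.0759, and 0.0491 without control replicate 1), and of Il1f6, which encodes interleukin 36 alpha, at -0.18 ± 0.085. Of the 11 clusters 10 were dimmer than the median cluster.

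Of 20 measured genes that process and release these cytokines 4 were called higher and none lower, against 4.71% and 3.52% of all clusters. Their median log2 change was 0.050. The count of higher genes was 2 without moderation of the variances, and 1 gene, the sensor Nlrc4, passed as lower without cuprizone replicate 2 and with the replicate block (limma adjusted p of 0.0452 and 0.0442). The 4 that rose were the protease that matures interleukin 1 beta and interleukin 18, Casp1 (0.43 ± 0.091, 1.35-fold), the non-canonical inflammasome protease Casp4 (0.44 ± 0.11, limma adjusted p = 0.0256), Casp8, a caspase that can also cleave interleukin 1 beta (0.43 ± 0.077), and Capn2, the large subunit of a calpain, the protease class that cleaves interleukin 1 alpha (0.35 ± 0.067). Casp1 stood at 4.68 ± 0.11 in the controls and 5.11 ± 0.18 with cuprizone, and it and Casp4 were among the dimmest 25% of clusters. The groups of Casp4 overlapped, with control replicate 4 at 5.11 above cuprizone replicate 2 at 5.10. Its call was lost without control replicate 1, 2 or 3 or without cuprizone replicate 1 or 3. The adjusted p was then 0.0705 to 0.0771 (limma). Casp1 had an adjusted p of 0.0805 without moderation of the variances, and Capn2 of 0.0604 without replicate 2 of both groups. Of the 16 genes that did not pass, Nlrc4 had the smallest p, at -0.24 ± 0.073 (limma adjusted p = 0.0718). Others among the 16 were the sensor Nlrp3 at 0.19 ± 0.093, the adaptor Pycard at 0.17 ± 0.061 and the pore protein Gsdmd at 0.037 ± 0.050. These 4 were singled out after their values were seen, Nlrc4 for its p and the others as the core of the NLRP3 inflammasome and its pore.

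Signalling genes downstream of the receptors were called higher in 4 of 20 cases and lower in none, with a median of 0.061. Myd88, the adaptor of both interleukin 1 and Toll-like receptors, rose 1.70-fold (0.77 ± 0.11, limma adjusted p = 0.00111), from 7.47 ± 0.058 to 8.24 ± 0.25. The NF-kappa B subunits Rela (0.60 ± 0.084, 1.52-fold) and Nfkb2 (0.50 ± 0.060, 1.41-fold) and the kinase Map3k8 (0.33 ± 0.056) rose too. The groups of these 4 genes did not overlap, but 7 of the 20 signalling genes were higher without overlap, as were 8.24% of all clusters. Of 24 target genes that interleukin 1 is known to induce, 2 were called higher and none lower, with a median of 0.088. Vcam1, an adhesion molecule for leukocytes, rose 1.65-fold (0.72 ± 0.079, limma adjusted p = 0.000229), and the chemokine Ccl2 1.75-fold (0.81 ± 0.16, limma adjusted p = 0.0108, and 0.0954 without moderation). The acute phase gene Lcn2, singled out after its values were seen, stood highest of the 24 at 0.85 ± 0.28 but did not pass (limma adjusted p = 0.0989), with an SD of 0.65 over the controls. Without control replicate 2 its log2 change was 1.17 (limma adjusted p = 0.00218). The count of higher targets was 4 without cuprizone replicate 2, 5 without replicate 2 of both groups and 1 without moderation of the variances. Of the 24 targets 22 were dimmer than the median cluster, and many of them are induced by other cytokines as well. Over all clusters tested the median change was -0.0074, and 4.71% were called higher.

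**Figure D4:**
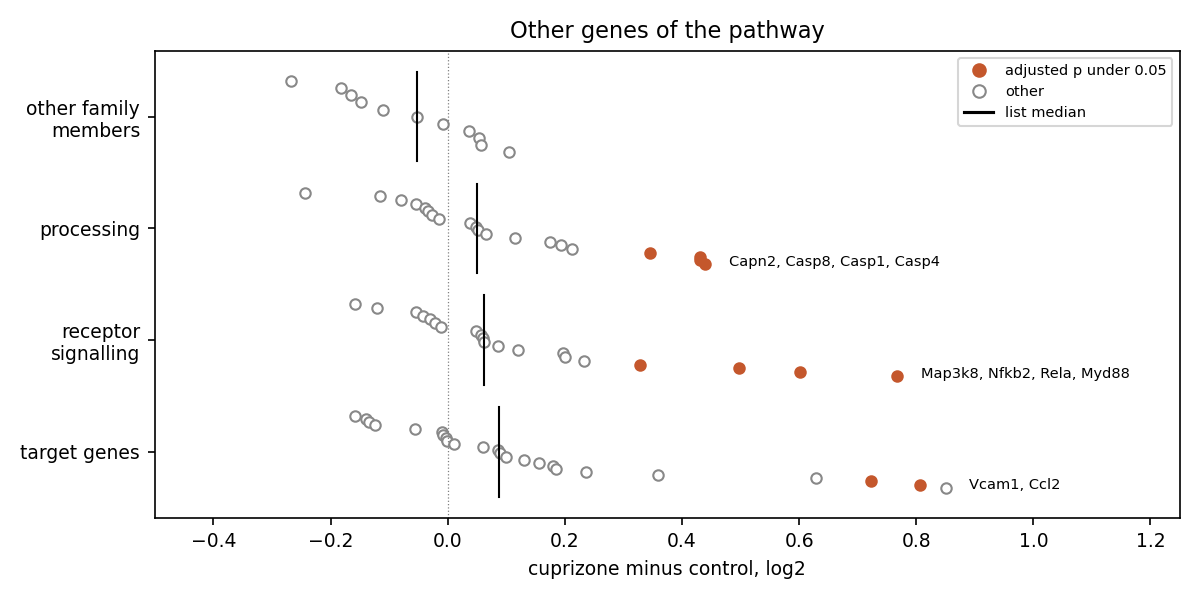
Difference between the cuprizone and control means on the log2 scale for each measured gene of 4 lists, sorted within the list, with the list median as a black line. Filled points passed a limma adjusted p of 0.05 and are named beside their row from the smallest to the largest change, and open points did not pass. The filled points are all to the right of 0, and the list medians lie between -0.052 and 0.088.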

How the data were processed

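Total RNA of 8 corpus callosum samples was hybridised to 8 arrays, 150 ng each, per the labels' protocols. The deposited values are log2 levels of 28944 transcript clusters. The submitters' processing notes name Affymetrix Expression Console, RMA and Transcriptome Analysis Console. RMA as published equalises the distributions of the arrays, which hides a shift common to most transcripts, and compresses large folds of dim clusters. Scan dates and detection calls are not given in the sources used here, so batches were not tested.

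The 23410 clusters with a gene symbol were tested with limma 3.58.1 in R 4.3.3 (2 groups, default eBayes, no filter, two-sided) with Benjamini-Hochberg adjustment. Errors are SD for levels and SE for changes. Named were the 8 measured family genes, up to 4 called genes with the smallest p (otherwise 2) of each of 4 pathway lists, the 5 nearest profiles of each called family gene, without predicted genes, and up to 3 bright markers of a cell type. Genes outside this rule are marked in the text as singled out afterwards. Genes and lists were chosen with earlier results of these data known. Over all clusters tested, same-numbered replicates did not deviate together (correlations of -0.19 to 0.21), so the numbers were not taken as pairs. The choroid plexus genes Ttr, Folr1 and Kl, singled out after their values were seen, were higher on replicates 2 and 4 than on 1 and 3 in both groups. The log2 level of Ttr was 10.2, 12.3, 9.56 and 12.6 on the controls and 9.84, 12.2, 9.91 and 12.1 on the cuprizone arrays. What same-numbered samples share was not tested. The steps were tested on simulated data. Alternatives were the replicate block, leaving out arrays, other variance settings, renormalization, filters on dim clusters, other cluster sets, array weights and a neuronal covariate.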

Additional observations from a re-analysis of the deposited data

Results flagged for a closer look

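In 3 of 40 groups of 4 arrays examined, 1 array lay far from the other arrays of its group by Dixon's ratio at the 95% level, a rate at which chance marks about 1 in 20 groups. Il18bp stood at 8.15 on cuprizone replicate 4, against 8.03 to 8.05 on the other cuprizone arrays. Il1f6 stood at 3.75 on cuprizone replicate 4, against 4.00 to 4.04. Among the controls, Casp4 stood at 5.11 on replicate 4 and at 4.84 to 4.86 on the rest.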

How the results depend on the processing

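Il1a and Il33 kept their direction and call in every alternative in which they were tested (18 and 20), between 1.09 and 1.20 and between -1.45 and -1.19, and so did Il18, between -0.58 and -0.46. The 2 genes called lower stayed 2 in all 20 alternatives. The count of family genes called higher fell from 2 to 1 without replicate 2 of both groups, without moderation of the variances and with the neuron markers as a covariate, each time by loss of Il1b. It was 0 without the dimmest 25% of clusters and 0 above the median cluster, because Il1a and Il1b are too dim to be tested there. With the replicate block, which changed no call of the 8 genes, 892 clusters were higher and 636 lower, against 1102 and 823, Il1rapl2 had an adjusted p of 0.0424 and Prrg4, the profile nearest to Il1b, one of 0.0566 (limma). Without moderation of the variances 632 were higher. The paired test of the 6 pairs cannot pass the threshold with 4 replicate numbers, nor can 3 arrays against 3. Leaving out 1 array, the change of Il1rap ran from -0.12 to 0.0030, that of Il1rl2 from -0.0076 to 0.15, and the difference of Il1b from Il1rn from 0.32 to 0.47 and of Il1a from Il1b from 0.58 to 0.74. Of the marker lists without a called gene, the endothelial one had 1 lower gene with arrays centred on their medians or without the dimmest 25%, and the neuron one had 1 without moderation, after quantile normalization or above the median cluster. No gene of the 8 had a second single-symbol cluster to try. The dim levels of Il1a, Il1b, Il1rn and Il18r1 limit what can be said of small changes in them.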
